A study of Rattus norvegicus with 8 samples.

Results

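The transcripts of neutrophil proteins were examined in reperfused rat hearts: the calprotectin subunits S100a8 and S100a9, the granule proteins Lcn2, Ngp, Camp, Elane and Mpo, and the receptors Csf3r and Fpr1. The genes were chosen by name. Each matched 1 probe set (a group of array probes for 1 transcript) annotated with that symbol alone, so the 9 genes stand for 9 of 28826 probe sets and 9 of 14497 named genes. The RNA was that of left ventricle from female rats late in pregnancy, and every heart had been deprived of blood and then reperfused. In the 5 ILPD arrays reperfusion came with a single bolus of 5 mg/kg of the treatment that the labels call ILPD. In the 3 placebo arrays it came with vehicle. The title of the series names Intralipid, a lipid emulsion for intravenous use, and its design text writes ITLD, which is taken here to be the same treatment. The labels state neither age nor strain. They number the samples as replicates without saying that each is a separate animal, so the p-values reflect variation among these samples, some of which could be technical. Hearts without ischemia were not analysed here. As a check of the tissue, the mean log2 value over 12 ventricular cardiomyocyte markers was taken. As deposited, it was 13.34 to 13.50 in ILPD arrays and 13.54 to 13.62 in placebo arrays, lower in ILPD without overlap. This depended on normalization. The median difference of the 12 markers, ILPD minus placebo, was -0.15 on the log2 scale as deposited. It was -0.01 after quantile, 0.05 after cyclic loess and -0.23 after median normalization. Array medians were 7.16 to 7.20 in ILPD and 7.08 to 7.14 in placebo, without overlap. Precision is limited by having 8 arrays.

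Neutrophils are among the earliest white blood cells to enter heart muscle after reperfusion. Their granule proteins are made in the bone marrow, those of azurophil granules (Elane, Mpo) in earlier precursors than those of specific granules (Lcn2, Ngp, Camp), and much of this messenger RNA is gone from circulating cells. Transcripts of S100a8, S100a9, Csf3r and Fpr1 stay abundant in mature neutrophils. Lcn2 is not limited to neutrophils, since macrophages, injured epithelium and cardiomyocytes can make it too. Whether the transcripts of the other genes came from neutrophils alone was not tested here either. In a piece of tissue measured in bulk, fewer cells of a type and less RNA per cell cannot be told apart.

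Promoters are shown for S100a9, Lcn2 and Csf3r because these genes had the widest ranges over the arrays; S100a9 and Csf3r ranked the 8 arrays in the same order, and Lcn2 ranked them in another. The sequences are those of RefSeq on build GRCr8, from 250 bases before to 50 bases from the annotated start, and 7 of the 9 genes matched this table. Capitals mark the letters TTNNGNAA, a core form of the motif bound by C/EBP factors, which drive granule genes in mouse precursors. The S100a9 promoter lies on the minus strand at chr2:178490573-178490872, that of Lcn2 on the minus strand at chr3:36081731-36082030 and that of Csf3r on the plus strand at chr5:143582970-143583269.
S100a9: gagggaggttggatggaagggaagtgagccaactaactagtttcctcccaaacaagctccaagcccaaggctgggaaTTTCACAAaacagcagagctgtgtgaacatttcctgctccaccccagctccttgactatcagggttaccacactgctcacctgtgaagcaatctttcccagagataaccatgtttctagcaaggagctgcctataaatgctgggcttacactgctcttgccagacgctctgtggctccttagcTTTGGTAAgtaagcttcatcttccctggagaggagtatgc
Lcn2: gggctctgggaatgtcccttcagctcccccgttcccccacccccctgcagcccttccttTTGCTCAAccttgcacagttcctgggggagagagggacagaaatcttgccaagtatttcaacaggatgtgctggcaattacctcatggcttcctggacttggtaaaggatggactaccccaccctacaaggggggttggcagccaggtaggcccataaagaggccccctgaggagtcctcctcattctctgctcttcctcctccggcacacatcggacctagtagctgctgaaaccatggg
Csf3r: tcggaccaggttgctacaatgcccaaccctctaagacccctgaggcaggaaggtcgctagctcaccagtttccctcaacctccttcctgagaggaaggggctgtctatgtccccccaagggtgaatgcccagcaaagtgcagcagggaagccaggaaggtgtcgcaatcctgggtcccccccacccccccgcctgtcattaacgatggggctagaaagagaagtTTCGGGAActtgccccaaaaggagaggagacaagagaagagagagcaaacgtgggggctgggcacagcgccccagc
On either strand, TTNNGNAA occurred in 6 of the 7 member promoters and in 41.3% of 33469 promoters of the same length. The S100a9 promoter held it 173 bases upstream of the start and 10 bases downstream, and it also held the letters TATAAA 42 bases upstream, which 14.2% of promoters hold. GGG and CC with any 5 bases between them, a form that takes in the motif of NF-kB, occurred in 4 of the 7 and in 47.3% of all. In Lcn2 this form lay 243, 242 and 81 bases upstream, the matches at 243 and 242 bases overlapping each other. The PU.1 motif GAGGAAGT, held by 2.42% of promoters, was in 0 of the 7 windows. In the gene table of GRCr8, S100a8 and S100a9 are neighbours on chromosome 2 with 0 genes between them.

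The question put to the arrays was whether treated hearts differed from vehicle hearts in these transcripts after the same injury. All 9 genes had a positive difference, ILPD minus placebo, with a median of 0.23 on the log2 scale, though Mpo turned negative after quantile, cyclic loess or median normalization and Ngp after the last of these. Over all probe sets the median was 0.02 and 58.5% were positive. None of the 9 passed limma's test after Benjamini-Hochberg adjustment over all probe sets, while 2.81% of all probe sets did. At an unadjusted p under 0.05, limma counted 2 of the 9, S100a8 and Lcn2, against 18.3% of all probe sets, and an exact permutation test of the arrays counted 0. The lowest exact p was 0.0536 for both S100a8 and Lcn2, where the smallest that 8 arrays allow is 0.0179. In 1 gene, S100a8, all ILPD arrays lay above all placebo arrays, which held for 7.95% of all probe sets. In 0 of the 9 did all ILPD arrays lie below all placebo arrays, which held for 4.42%. From the largest difference to the smallest the genes ran Lcn2, S100a9, S100a8, Csf3r, Fpr1, Elane, Camp, Ngp and Mpo, over a range of 1.36 to 0.01.

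**Figure D1:**
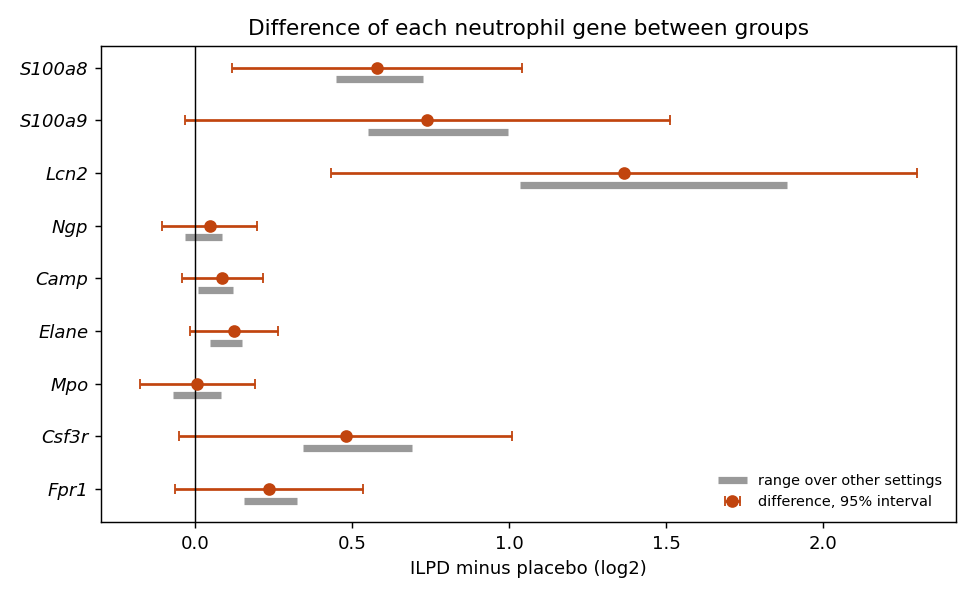
Difference of each gene between 5 ILPD and 3 placebo arrays (log2, ILPD minus placebo), with its 95% interval from limma as a thin line and the range of the difference over the other settings as a grey bar. The interval lies wholly above 0 for S100a8 and Lcn2 only, before any adjustment for multiple tests.

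S100a8 and S100a9 are calcium-binding proteins that pair as calprotectin, which is released by activated neutrophils and attracts more of them. S100a8 (probe set 10817071) had log2 values of 7.32, 7.13, 6.42, 6.82 and 6.35 in ILPD arrays 1 to 5, against 6.33, 6.09 and 6.28 in placebo arrays 1 to 3. ILPD arrays 1 and 2 stood highest, and ILPD array 5 lay barely above the highest placebo array, so the groups did not overlap but nearly touched. The difference was 0.58 (SE 0.21), a 1.49-fold higher level with a 95% interval of 1.08 to 2.05, and it did not pass (limma adjusted p = 0.176). S100a9 (probe set 10824695) had 10.81, 10.47, 9.32, 10.27 and 9.38 in ILPD arrays 1 to 5, against 9.82, 9.09 and 9.02 in placebo arrays 1 to 3. Here placebo array 1 lay above ILPD arrays 3 and 5, so the groups overlapped. The difference was 0.74 (SE 0.35), or 1.67-fold with a 95% interval of 0.978 to 2.85 (limma adjusted p = 0.297). Both subunits had the same 3 ILPD arrays on top, in the order 1, 2 and 4.

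**Figure D2:**
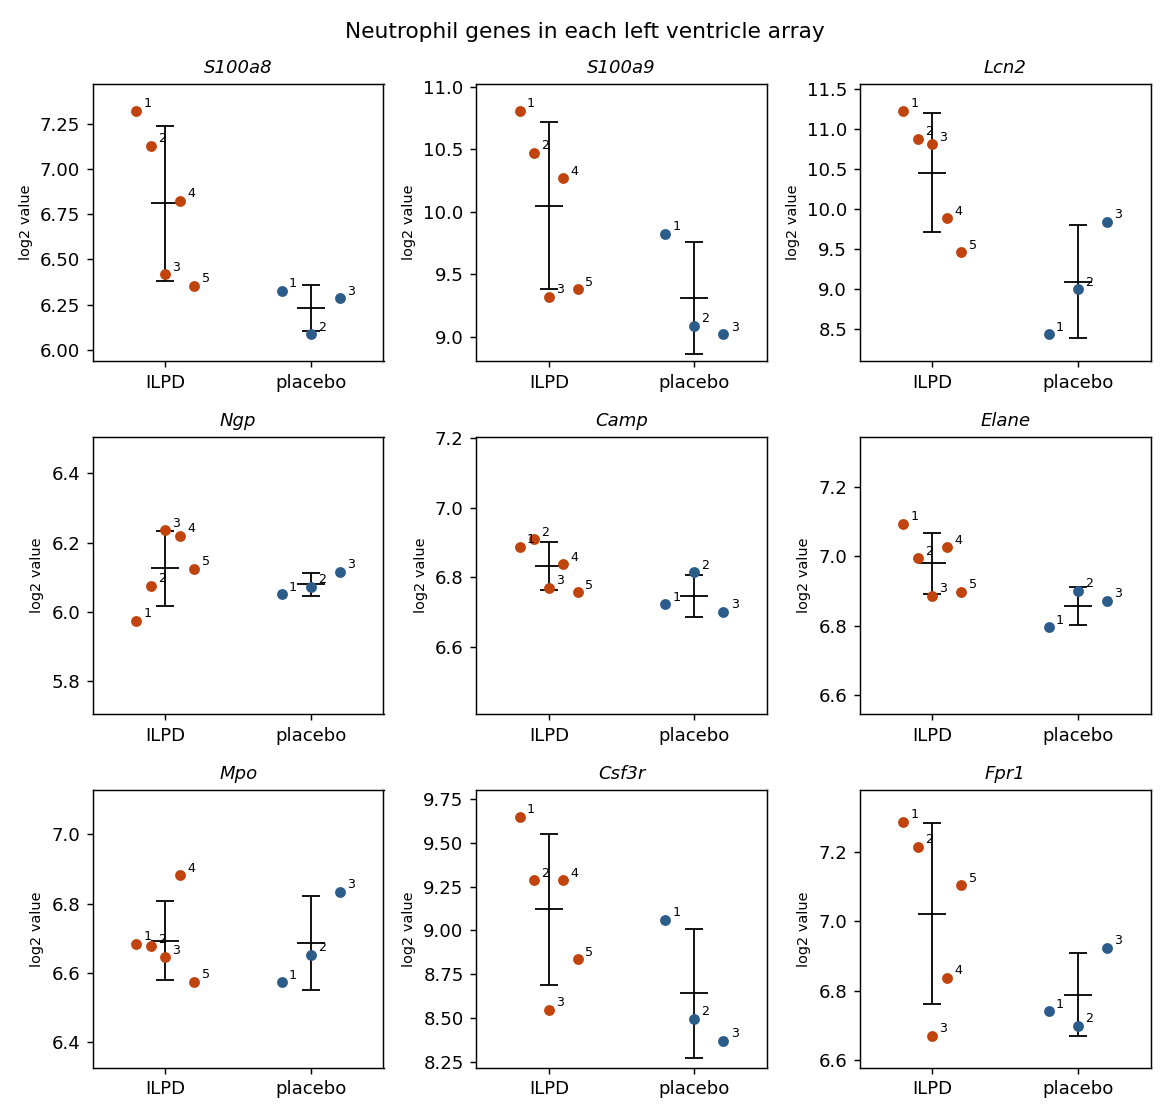
Log2 value of each gene in each array, ILPD left and placebo right, with array numbers beside the points and the mean with 1 SD as black bars. Vertical axes differ between panels, and S100a8 is the gene in which the ILPD and placebo arrays do not overlap.

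Lcn2 encodes lipocalin 2, a granule protein that binds bacterial iron carriers. It had the largest difference and the widest range of the 9. Lcn2 (probe set 10844331) had log2 values of 11.23, 10.88, 10.81, 9.89 and 9.46 in ILPD arrays 1 to 5, against 8.43, 8.997 and 9.84 in placebo arrays 1 to 3. Of the 5 ILPD arrays, 4 lay above every placebo array, and ILPD array 5 lay below placebo array 3. The level averaged 10.45 ± 0.75 (SD, n = 5) in ILPD and 9.09 ± 0.71 (SD, n = 3) in placebo. The difference of 1.36 (SE 0.42), or 2.57-fold with a 95% interval of 1.35 to 4.91, did not pass (limma adjusted p = 0.119). Without ILPD array 5 the difference was 1.61 and passed (limma adjusted p = 0.0493), and without placebo array 1 it was 1.04 (0.354). Over its 15 alternatives the adjusted p ran from 0.0450 to 0.354.

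The other specific granule genes were close to level. Camp encodes the cathelicidin precursor, from which an antimicrobial peptide is cut. Its 5 ILPD arrays ran from 6.76 to 6.91 with a median of 6.84, and its placebo arrays read 6.72, 6.81 and 6.70, so the groups overlapped. The difference was 0.09 (SE 0.06, 95% interval -0.04 to 0.22, limma adjusted p = 0.487). Ngp, the neutrophilic granule protein, read 5.97, 6.07, 6.24, 6.22 and 6.13 in ILPD arrays 1 to 5 and 6.05, 6.07 and 6.12 in placebo arrays. ILPD array 1, the highest array for S100a8, S100a9 and Lcn2, was the lowest of all 8 for Ngp. Ngp spanned only 0.26 over the arrays, however, at a mean level of 6.11, so its order is not read as a contrast. Its difference was 0.05 (SE 0.07, 95% interval -0.11 to 0.20, limma adjusted p = 0.784).

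The azurophil granule genes differed little too. Elane, neutrophil elastase, read 7.09, 6.99, 6.89, 7.03 and 6.90 in ILPD arrays 1 to 5, against 6.80, 6.90 and 6.87 in placebo arrays. ILPD arrays 1, 2 and 4 lay above every placebo array and ILPD arrays 3 and 5 did not. The difference was 0.12 (SE 0.06, 95% interval -0.02 to 0.26, limma adjusted p = 0.341). Mpo, myeloperoxidase, which makes hypochlorous acid, ran from 6.57 to 6.88 in ILPD arrays and from 6.57 to 6.83 in placebo arrays, an almost full overlap. Its difference was 0.01 (SE 0.08, 95% interval -0.18 to 0.19, limma adjusted p = 0.980). S100a8, Ngp and Mpo had mean levels among the dimmest 40% of probe sets, below a log2 value of 6.77, and the other 6 genes lay above it. Camp at 6.80, Elane at 6.93 and Fpr1 at 6.93 still averaged below every array median. No measure of background was used, so none of the genes was called undetected. Small differences at these levels are not read as an absence of change. With each array centred on its median, the differences were 0.05 for Elane, 0.01 for Camp, -0.03 for Ngp and -0.07 for Mpo.

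Csf3r is the receptor for granulocyte colony-stimulating factor, on which the production and survival of neutrophils depend. Csf3r (probe set 10871957) had log2 values of 9.65, 9.29, 8.55, 9.29 and 8.84 in ILPD arrays 1 to 5, against 9.06, 8.49 and 8.37 in placebo arrays 1 to 3. ILPD arrays 1, 2 and 4 lay above all placebo arrays, while placebo array 1 lay above ILPD arrays 3 and 5. The difference was 0.48 (SE 0.24), or 1.39-fold with a 95% interval of 0.965 to 2.01 (limma adjusted p = 0.326). Fpr1 is the receptor for formylated peptides, which bacteria and damaged mitochondria release and which draw neutrophils in. Fpr1 (probe set 10718351) read 7.29, 7.21, 6.67, 6.84 and 7.10 in ILPD arrays 1 to 5, against 6.74, 6.70 and 6.92 in placebo arrays. ILPD array 3 was the lowest of all 8 arrays, so the whole placebo range lay within the ILPD range. The difference was 0.23 (SE 0.13), or 1.18-fold with a 95% interval of 0.955 to 1.45 (limma adjusted p = 0.403), and it was 0.16 with each array centred on its median.

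In each of the 9 genes the ILPD arrays spread over a wider range than the difference between the groups. Within the ILPD group the highest and lowest arrays were 1.77 apart for Lcn2, 1.49 for S100a9, 1.10 for Csf3r, 0.97 for S100a8 and 0.62 for Fpr1 on the log2 scale. In placebo they were 1.41, 0.81, 0.69, 0.24 and 0.22 apart for the same genes. The SD within groups, pooled over both, was 0.73 for Lcn2 and 0.60 for S100a9, wider than that of 99.9% of all probe sets. It was 0.41 for Csf3r, 0.36 for S100a8 and 0.22 for Fpr1, wider than 99.2%, 98.7% and 92.8% of probe sets, whose median was 0.10. Elane, Ngp and Camp, at 0.08, 0.09 and 0.07, were narrower than that median, and Mpo, at 0.12, was wider.

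**Figure D3:**
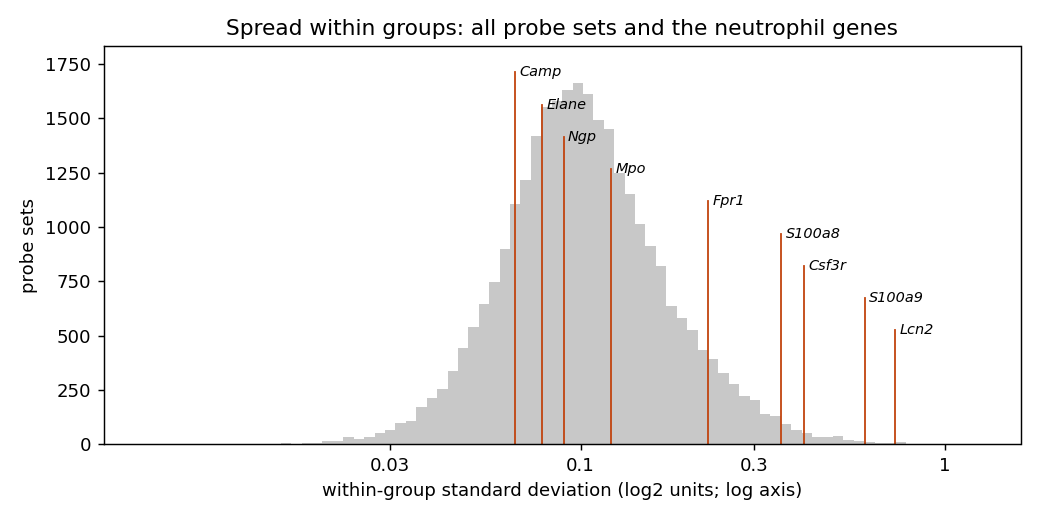
Histogram of the within-group standard deviation of all 28826 probe sets (log2 units, logarithmic axis), with a line for each of the 9 genes. Lcn2, S100a9, Csf3r and S100a8 lie in the right tail, and Camp, Elane and Ngp lie below the median.

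ILPD array 1 was the highest of all 8 arrays for 6 of the 9 genes: S100a8, S100a9, Lcn2, Elane, Csf3r and Fpr1. ILPD arrays 1, 2 and 4 all stood above ILPD arrays 3 and 5 for 6 genes as well, S100a8, S100a9, Camp, Elane, Mpo and Csf3r. The orders of Camp, Elane and Mpo rest on narrow ranges of 0.21, 0.30 and 0.31 over the 8 arrays. Among placebo arrays, array 1 was the highest for S100a8, S100a9 and Csf3r, whereas for Lcn2 it was the lowest of all 8. Placebo array 3 was the highest placebo array for Lcn2, Ngp, Mpo and Fpr1. The likeness of 2 genes was measured as the root mean square difference of their log2 values over the 8 arrays, each gene centred on its own mean. It was 0.21 between S100a8 and Csf3r, 0.23 between S100a9 and Csf3r and 0.28 between the calprotectin subunits. Lcn2 stood at 0.66 from S100a8, 0.80 from S100a9 and 0.84 from Csf3r. The measure is not scaled, so it grows with the range of the genes. The closest pair of all was Camp and Elane at 0.05, both of narrow range. Distances from Lcn2, the gene of widest range, do not by themselves show a different pattern. The genes share their arrays, so these values describe 8 arrays and carry no test.

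**Figure D4:**
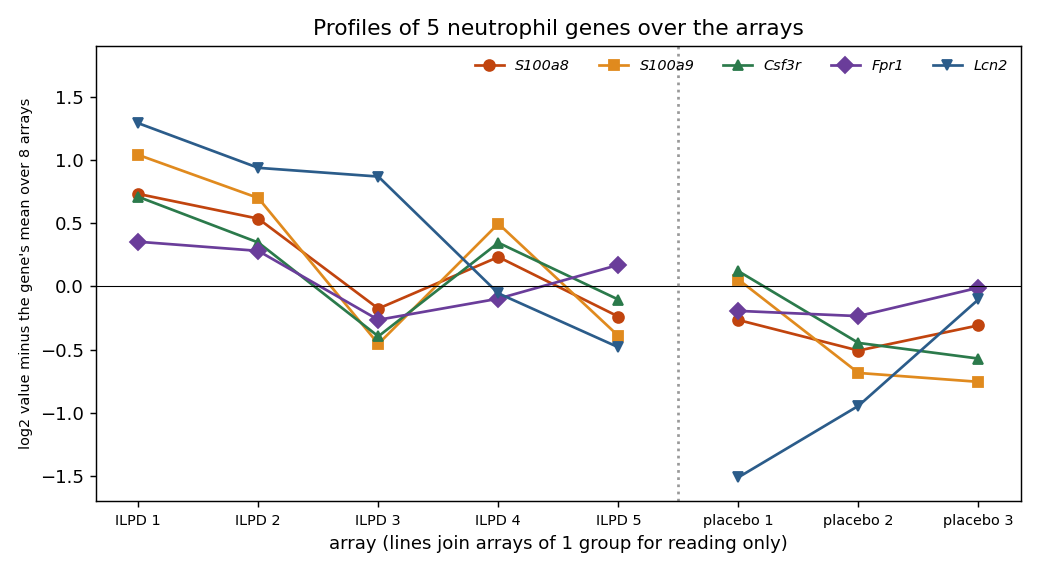
Log2 value of 5 genes minus each gene's mean over the 8 arrays, with ILPD arrays on the left and placebo arrays on the right of the dotted line. S100a8, S100a9 and Csf3r are high in ILPD arrays 1, 2 and 4, while Lcn2 is high in ILPD arrays 1, 2 and 3 and lowest in placebo array 1.

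The named genes closest to Lcn2 over the 8 arrays were Apold1 at 0.45, the neutrophil chemokine Cxcl2 at 0.45, the iron hormone Hamp at 0.45, the amino acid transporter Slc7a5 at 0.50 and the histone gene H3f3b at 0.50. The root mean square of Lcn2 around its own mean was 0.92. Their differences between ILPD and placebo ran from 0.68 for Hamp to 1.26 for Cxcl2. Because they were picked for likeness to Lcn2 over the same arrays, its own difference included, these differences are a description with no test. The same search for S100a9, added after its values were seen, gave the lectin receptors Clec4e at 0.17 and Clec4d at 0.19, the chemokine receptor Ccr1 at 0.21, the inducible nitric oxide synthase Nos2 at 0.21 and the myeloid receptor Trem1 at 0.22. S100a9 itself had a root mean square of 0.63. Their differences ran from 0.753 for Nos2 to 0.998 for Trem1, likewise as a description. The lists of 5 shared no gene. That is not read as a contrast, since each is drawn from 14497 named genes and the measure depends on range.

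Other neutrophil genes, taken from fixed lists, gave few calls. Of 59 listed genes 49 were measured, of which 2 rose and 0 fell (limma adjusted p under 0.05), against 1.96% of all probe sets that rose and 0.857% that fell. The median difference was 0.29 and 44 of 49 were positive (0.21 and 37 with each array centred on its median), where 58.5% of all probe sets were positive as deposited. In 10 of the 49 all ILPD arrays lay above all placebo arrays, against 7.95% of all probe sets, and in 1 they lay below, against 4.42%. The count of rises fell to 0 when ILPD array 2 or 4 or placebo array 2 or 3 was left out, and to 1 when ILPD array 1 was. Leaving out placebo array 1 gave 3, ILPD array 5 gave 6 and ILPD array 3 gave 7. It was 7 of 38 with the dimmest probe sets left out, and 0 after quantile, cyclic loess or median normalization. With the replicate number as a block it was 7, and with an intensity trend or with array weights 1. Rises over all probe sets, 564 as deposited, varied too, from 116 without placebo array 2 to 694 with array weights.

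Among 18 measured granule and secreted proteins the gelatinase Mmp9 rose, by 0.58 (SE 0.13, limma adjusted p = 0.0466), though ILPD array 3 at 7.065 lay just below placebo array 1 at 7.071. That call held in 2 of 15 alternatives. The collagenase Mmp8 had the largest difference of this list, 1.32, with 9.91, 10.08, 9.06, 9.96 and 9.23 in ILPD arrays 1 to 5 and 9.06, 7.88 and 8.05 in placebo arrays (limma adjusted p = 0.0511). ILPD arrays 1, 2 and 4 were again the upper 3, and placebo array 1 again the upper placebo array. Lactoferrin, Ltf, had the lowest difference, -0.12 (limma adjusted p = 0.520). Among 15 receptors and adhesion molecules Ptafr, the receptor for platelet-activating factor, rose by 0.54 (SE 0.11, limma adjusted p = 0.0377). Ptafr read 8.47, 8.31, 8.04, 8.32 and 8.01 in ILPD arrays 1 to 5, against 7.71, 7.54 and 7.83 in placebo arrays, without overlap. Its call held in 6 of 15 alternatives and was lost in the others (limma adjusted p up to 0.138). The losses came when any 1 placebo array or ILPD array 2 or 4 was left out. They also came after quantile, cyclic loess or median normalization and with the replicate number as a block. Il1r2, a decoy receptor for interleukin-1, had the largest difference, 1.17 (limma adjusted p = 0.0683), and Tlr4 the lowest, -0.02 (0.965).

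Of 9 measured genes of the phagocyte oxidase and signalling, 0 passed, where 2.81% of all probe sets did. Cybb, the catalytic subunit, had the largest difference, 0.51 (limma adjusted p = 0.104). Ncf1, a cytosolic subunit, had the lowest, -0.42 (0.190), with ILPD arrays from 9.08 to 9.86 and placebo arrays from 9.95 to 10.03, without overlap. Of 7 granulocyte transcription factors 0 passed, and the differences ran from 0.00 for Gfi1 to 0.36 for Runx1 (limma adjusted p = 0.0902 for Runx1). Cebpe, the C/EBP factor of specific granules, picked out here after its value was seen, differed by 0.09 (limma adjusted p = 0.582).

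**Figure D5:**
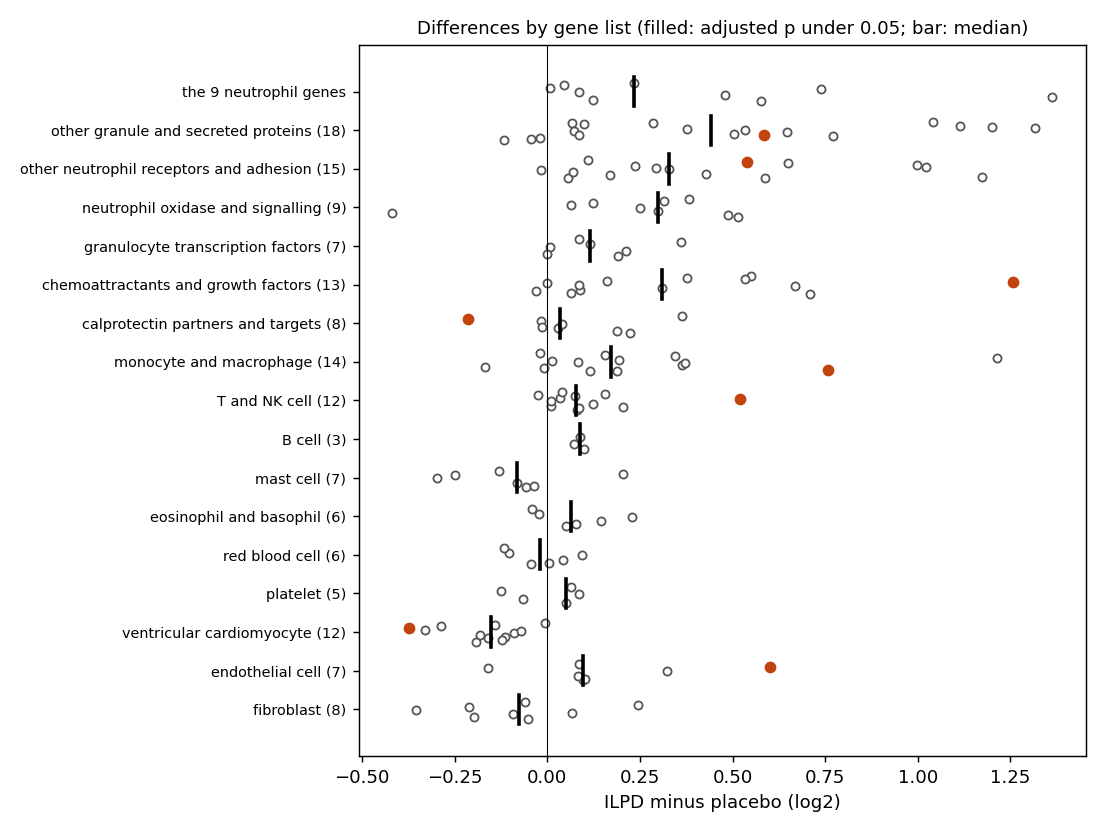
Difference between ILPD and placebo (log2) for every measured gene of each list, 1 circle a gene, with the number of genes in brackets. Filled circles passed limma's adjusted threshold of 0.05 and black bars are list medians. None of the 9 neutrophil genes in the top line is filled, and Mmp9 and Ptafr are the filled circles of the neutrophil lists below it.

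Of 13 measured genes on the list of neutrophil chemoattractants and growth factors, 1 rose and 0 fell, with a median difference of 0.31. Over all probe sets 1.96% rose and 0.857% fell, and the median was 0.02. That gene was Cxcl2, a ligand of the neutrophil receptor Cxcr2, at 9.32, 9.77, 9.21, 9.48 and 8.61 in ILPD arrays 1 to 5, against 7.64, 7.98 and 8.44 in placebo arrays. The groups did not overlap, and placebo array 1 was lowest and placebo array 3 highest among placebo arrays, as for Lcn2. Its call held in 10 of 15 alternatives and was lost without ILPD array 2, 3 or 4 or placebo array 1 or 2 (limma adjusted p up to 0.105). Lta4h, which makes the lipid attractant leukotriene B4, had the lowest difference, -0.03 (limma adjusted p = 0.879). Csf3, the ligand of Csf3r, picked out here for that role, read 7.24, 7.12, 6.90, 6.82 and 6.68 in ILPD arrays 1 to 5 and 6.65, 6.68 and 7.05 in placebo arrays. Its difference was 0.16 (SE 0.14, limma adjusted p = 0.587), and its groups overlapped.

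Of 8 measured genes listed as partners or targets of calprotectin and lipocalin 2, 0 rose and 1 fell. The shares over all probe sets were 1.96% and 0.857%. Bsg, basigin, a membrane protein that binds S100a9, fell by 0.21 (SE 0.05, limma adjusted p = 0.0450), with 13.36 to 13.44 in ILPD arrays and 13.59 to 13.63 in placebo arrays. The call held in 2 of 15 alternatives. It was lost whenever 1 array was left out, and also after quantile or cyclic loess normalization, among other settings. Over all the alternatives the limma adjusted p reached 0.890 and the difference was -0.02 at its smallest. Cd14, a coreceptor of Tlr4, had the largest difference, 0.36 (limma adjusted p = 0.454).

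Markers of other blood cells were set beside these values. For comparison, 58.5% of all probe sets had a positive difference, 1.96% rose and 0.857% fell. Of 14 measured monocyte and macrophage markers, 11 had a positive difference and 1 rose, Cx3cr1 (0.76, limma adjusted p = 0.0311). The Cx3cr1 call was lost in 6 of 15 alternatives, with an adjusted p up to 0.123. These were quantile normalization, the replicate block, and leaving out ILPD array 2 or any 1 placebo array. Ccr2, a chemokine receptor of inflammatory monocytes, had the largest difference of that list, 1.21 (SE 0.30, limma adjusted p = 0.0624), larger than those of 8 of the 9 neutrophil genes. It passed in 3 of 15 alternatives: without dim probe sets (adjusted p = 0.0436), with the replicate block (0.0254) and without placebo array 1, where the difference was 1.60 (0.0258). It averaged 10.76 ± 0.43 (SD, n = 5) in ILPD and 9.55 ± 0.66 (SD, n = 3) in placebo, and the groups overlapped. Adgre1, a macrophage surface protein, had the lowest, -0.17 (limma adjusted p = 0.572). The mean log2 value over that list was 8.97 to 9.28 in ILPD arrays and 8.70 to 8.98 in placebo arrays. ILPD array 1 was highest at 9.28, as for the calprotectin genes, but ILPD array 4 was the lowest of its group. Of 6 measured red blood cell markers 0 passed and 3 were positive. Their list mean was 7.73 to 8.40 in ILPD and 7.75 to 8.23 in placebo, so the groups overlapped. Of 5 measured platelet markers 0 passed, with list means of 7.07 to 7.53 in ILPD and 7.24 to 7.45 in placebo. No measure of background was used, so none of these markers was called detected or undetected. Their part in the differences of the 9 neutrophil genes was not tested.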

How the data were processed

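Total RNA from left ventricle was labelled with biotin and hybridised to Affymetrix arrays, per the labels' protocols. The deposited values are on a log2 scale, settled from their range, with a normalization by the authors not given in the sources used here. R 2.14.2 is named in the submitters' processing notes. Gene names came from the platform annotation, updated by gene ID through a RefSeq table (assembly GRCr8; 15178 of 15209 singly named probe sets matched). A gene of several probe sets was represented in list counts by the one with the highest mean, and each of the 9 genes has 1. Anxa1, Tlr4, Cd14, Cd68, Pf4 and Ppbp stand in more than 1 list, so the lists are not independent.

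ILPD was compared with placebo by limma 3.58.1 in R 4.3.3 (lmFit, eBayes, no covariates, no filter), two-sided, adjusted by Benjamini-Hochberg over all 28826 probe sets at 0.05. Of these, 564 were higher and 247 lower; with arrays centred on their medians, 291 and 793. Exact permutation tests used all 56 ways to part the arrays, two-sided and unadjusted. The test was checked on simulated data. Genes named were the 9, and of each neutrophil, chemoattractant and partner list the called genes and both extremes. The genes, lists and tests were chosen with earlier results of these data known. Figures used matplotlib 3.10.9.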

Additional observations from a re-analysis of the deposited data

How the results depend on the processing

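The calls and differences of the 9 genes, the list counts and the differences of the listed genes named were recomputed with an intensity trend and robust prior, quantile, cyclic loess and median normalization, without dim probe sets, with array weights, with the replicate number as a block, and without each array in turn. S100a8, Ngp, Mpo, Ltf and Cebpe are themselves among the dim probe sets and have no value in that setting. Likeness, spread within groups and counts of groups that do not overlap were computed on the deposited values alone. None of the 9 genes was called in any of these except Lcn2, which gave 1 call with the replicate block (difference 1.88, limma adjusted p = 0.0450) and 1 without ILPD array 5, so the count ran from 0 to 1 without single arrays; at an adjusted p of 0.1 it was 0. The replicate numbers do not pair the samples (correlations of deviations 0.22, -0.06 and -0.10), so the block is not read as a better estimate. Calls over all probe sets numbered 811, and 484 after quantile normalization, 459 with the replicate block, 1756 at an adjusted p of 0.1 and 172 to 975 without single arrays. Of 132 recomputed differences of the 9 genes, 8 changed sign. Ngp was -0.0321 with median centring. Mpo was -0.0560 after quantile, -0.0500 after cyclic loess and -0.0719 after median normalization, and -0.0173 with the block; it ran from -0.0505 to 0.0804 when single arrays were left out. Of the list genes, Gfi1 was -0.0716, -0.0610 and -0.0779 after the same normalizations and -0.0188 with the block. Leaving out single arrays gave -0.0294 to 0.0359 for Gfi1, -0.0737 to 0.0897 for Tlr4 and -0.0894 to 0.00938 for Lta4h. The cause of these changes was not tested. Averaging a gene's probe sets was not run, since each of the 9 genes has 1 probe set. The alternatives for gene lists were added after the data were seen. With 3 placebo arrays, the 95% intervals of S100a9, Csf3r and Fpr1 reach from a slightly lower to a clearly higher level.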

Other observations

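Markers of resident and other cells showed single calls. Among all probe sets 1.96% rose, 0.857% fell and 58.5% had a positive difference as deposited. Of 12 measured ventricular cardiomyocyte markers, 0 rose and 1 fell, Tnnc1, the troponin C of the thin filament (-0.37, limma adjusted p = 0.0195). The Tnnc1 call was lost in 5 of 15 alternatives, where its difference was -0.19 at its smallest. These were quantile and cyclic loess normalization, the replicate block, and leaving out placebo array 2 or 3. All 12 markers had a negative difference as deposited, and 9 of 12 were positive after cyclic loess normalization. Of 12 measured T and NK cell markers 1 rose, the NK receptor subunit Klrd1 (0.52, limma adjusted p = 0.0304). The Klrd1 call was lost in 6 of 15 alternatives: without any 1 placebo array, and after quantile, cyclic loess or median normalization. Of 7 endothelial markers 1 rose, the secreted vessel protein Egfl7 (0.60, limma adjusted p = 0.0282). The Egfl7 call was lost in 6 of 15 alternatives: after quantile normalization, and without ILPD array 2 or 3 or any 1 placebo array. None of 7 mast cell, 6 eosinophil and basophil, 3 B cell or 8 fibroblast markers passed, with list medians of -0.08, 0.06, 0.09 and -0.08.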
